A study of Mus musculus with 12 samples.

Results

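The BK channel genes were *Kcnma1*, which encodes the pore-forming alpha subunit, and *Kcnmb1*, *Kcnmb2*, *Kcnmb3* and *Kcnmb4*, which encode the auxiliary beta subunits. They were taken as every transcript cluster (the unit an array reports, a set of probes assigned to a transcript) annotated with 1 gene symbol that was one of these names. This gave 6 transcript clusters of 5 genes, out of 28944 transcript clusters, of which 21789 carried 1 symbol and covered 19938 genes. *Kcnma1* had 2 transcript clusters and each beta subunit had 1. The family was chosen from the difference between the groups described here, so that difference is given for the members as a description without a test.

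The BK channel is a potassium channel of large conductance that opens when the membrane depolarizes and when calcium rises near its inner mouth. The pore is a tetramer of *Kcnma1* products, and its calcium sensitivity and gating speed depend on which beta or gamma subunits are bound. In muscle tissue the channel is best known from the smooth muscle of vessel walls, where it opposes contraction, and it is also found in skeletal muscle fibers.

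The samples were gastrocnemius muscles of male germ-free mice of the outbred ICR stock (labelled Tsl;ICR[GF]), 11 weeks of age, with 1 array per mouse. By gavage, 6 mice received feces of sedentary donors (RS) and 6 received feces of donors trained on a treadmill (RT), and muscle was taken 1 week after the first gavage. Per the study's methods both groups ate a high-fat diet and were fasted briefly before sampling. Mice were housed together in cages and a group received the same fecal sample, so cage, fecal sample and donor training cannot be told apart, and the spread between mice does not include the spread between donors. Values are log2 signals, so a difference of 1 is a doubling of signal.

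The 8 defining skeletal muscle genes (among them *Acta1*, *Ckm*, *Mb* and *Ttn*) averaged between 11.6 and 11.9 in every mouse, which fits the labelled tissue. Array medians lay between 4.40 and 4.63. The spread of signals over an array (SD) was narrower in RS-4 (1.97) and RS-6 (1.99) than in the other mice (2.06 to 2.15). A signal was read as above background where its mean exceeded 3.74, the 95th percentile of 1035 transcript clusters of olfactory receptor genes.

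The annotated start regions of *Kcnma1* and of *Kcnmb1*, the beta subunit of vessel walls, are shown because they fix which gene of the genome each name refers to and how different the starts of pore and vessel subunit are. RefSeq places *Kcnma1* at chr14:23292288-24005110 and lists for it the start region chr14:24004156-24004455 on the minus strand, from 250 bases before to 50 after the start of a transcript that the table does not name. *Kcnmb1* lies at chr11:33962955-33973641, with its start region at chr11:33962763-33963062 on the plus strand. In both genes the start used lies inside the outer coordinates of the gene, so other transcripts may start elsewhere. All coordinates are of build GRCm38.p6, and the sequences are RefSeq's. All 5 genes matched an entry. Capitals mark the GC box GGGCGG and the TATA motif TATATA, searched on both strands, where 2 GC boxes may overlap.
Kcnma1: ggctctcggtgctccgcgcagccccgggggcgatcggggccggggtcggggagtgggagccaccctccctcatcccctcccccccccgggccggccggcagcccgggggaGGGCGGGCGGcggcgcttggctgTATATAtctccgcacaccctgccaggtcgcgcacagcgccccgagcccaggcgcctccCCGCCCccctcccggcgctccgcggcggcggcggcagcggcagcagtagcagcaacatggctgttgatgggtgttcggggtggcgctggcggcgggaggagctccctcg
Kcnmb1: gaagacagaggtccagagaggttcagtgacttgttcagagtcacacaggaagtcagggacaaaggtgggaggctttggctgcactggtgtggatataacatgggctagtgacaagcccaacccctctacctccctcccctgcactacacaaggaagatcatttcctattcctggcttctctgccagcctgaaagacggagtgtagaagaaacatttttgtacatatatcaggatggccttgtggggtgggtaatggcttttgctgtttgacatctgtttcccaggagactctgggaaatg

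The *Kcnma1* start region held 78.0% G and C and 36 CG pairs, with 3 GC boxes and 1 TATATA. The *Kcnmb1* start region held 49.7% G and C and 1 CG pair, with 0 GC boxes, 0 TATATA and 1 E-box (CANNTG). Over 32851 start regions of 27025 genes, the median was 52.7% G and C, and 35.7% held a GC box, 5.67% held TATATA and 72.3% held an E-box. The *Kcnmb4* region was like that of *Kcnma1*, with 79.0% G and C and 4 GC boxes, whereas *Kcnmb2* (47.7%) and *Kcnmb3* (57.7%) held 0 GC boxes. A match to these letters is a description and not a measured binding site.

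The 2 transcript clusters that carry the name *Kcnma1* gave different pictures. Cluster 10418053 lists 20 accessions, of which 17 are RefSeq transcripts of the gene, and is called the RefSeq cluster here. Cluster 10582545 lists 4 accessions and 0 RefSeq transcripts. Clusters close in number mostly belong to genes of a single chromosome, although genes that adjoin in the genome can be numbered far apart. Of the 20 named clusters nearest in number to the RefSeq cluster, 20 belonged to genes of chromosome 14, where *Kcnma1* is. Of the 20 nearest to 10582545, 20 belonged to genes of chromosome 8 and 0 to chromosome 14, and its closest named neighbors were *Fanca* and *Dbndd1*. The annotation and the place in this numbering therefore disagree for 10582545, and it is called by its number below and not read as *Kcnma1* expression. Which sequences its probes match was not tested.

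In the RefSeq cluster, the pore gene read 7.39, 7.00, 7.29, 7.04, 7.03 and 7.11 in RS-1 to RS-6. It read 7.35, 7.36, 7.37, 7.13, 7.35 and 6.98 in RT-1 to RT-6. The mice were close to each other, the lowest value was that of RT-6 and the highest that of RS-1, and the groups overlapped. The mean was 7.14 ± 0.16 in RS and 7.26 ± 0.16 in RT (SD, n = 6 each). RT minus RS was 0.11 with a standard error of 0.10 and a 95% interval from -0.09 to 0.32. The sign of this small difference depended on the scaling, since it was -0.03 with cyclic loess and -0.01 when arrays were quantile normalized again. All 12 values were well above background.

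Cluster 10582545 read 3.12, 3.62, 2.02, 2.57, 6.05 and 8.18 in RS-1 to RS-6. It read 12.05, 9.75, 11.97, 12.49, 11.45 and 7.61 in RT-1 to RT-6. Of the RS mice, 4 were under background and RS-5 and RS-6 stood out above them, while of the RT mice 5 were above every RS mouse. RT-6 was lower than RS-6, so the groups overlapped in that pair of mice. The mean was 4.26 ± 2.37 in RS and 10.89 ± 1.87 in RT (SD, n = 6 each), and RT minus RS was 6.63 with a standard error of 0.96. With the 4 RS values under background raised to the background level, the difference was 6.02. Between the highest mouse (RT-4) and the lowest (RS-3, under background) the signal ranged over 10.47 log2 units.

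**Figure D1:**
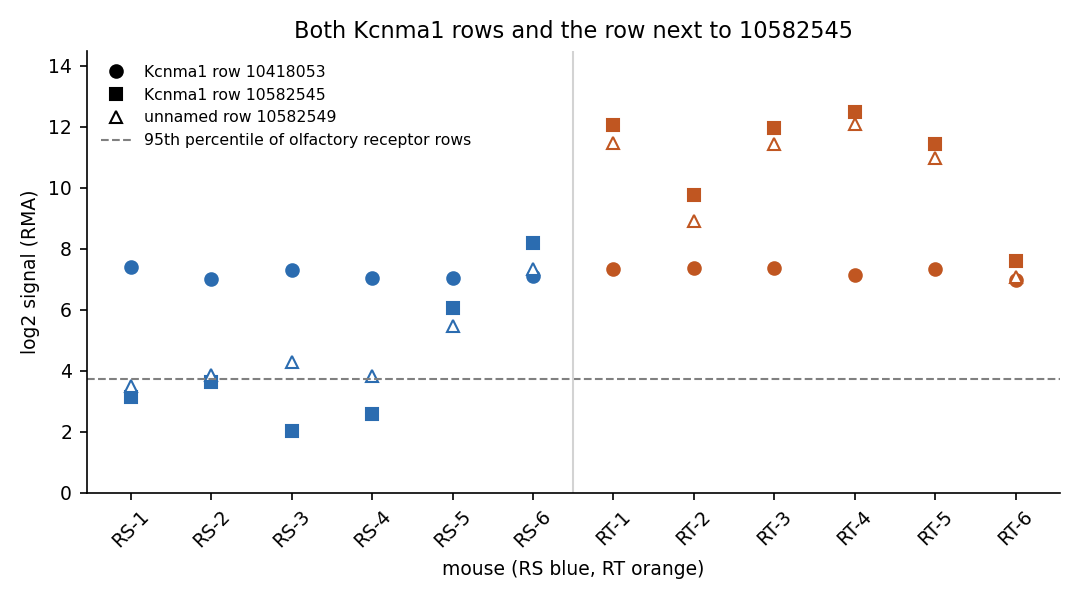
Log2 signal (vertical axis) of both Kcnma1 transcript clusters and of the unnamed cluster 10582549 in each mouse (horizontal axis), with the background level of 3.74 as a dashed line. The RefSeq cluster (circles) stays between 6.98 and 7.39 in all mice, while 10582545 (squares) runs from 2.02 to 12.49 and 10582549 (triangles) follows it.

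The spread between mice of one group also differed between these 2 clusters. It comes from the same values as the differences above, so it is a description and not separate support. The pooled within-group SD of 10582545 was 2.14, the largest of all 28944 transcript clusters on the values as given. Of its RS values 4 were under background, so part of this SD is spread below that level. Its rank with these values raised to background was not computed. In the RefSeq cluster the within-group SD was 0.16, at the 46.7th percentile of the 2154 clusters whose mean lay within 0.5 of its own. The 4 beta subunits had within-group SDs of 0.18 to 0.21, at the 43.7th to 61.8th percentile of clusters of similar signal. Leaving out RS-4 and RS-6 gave 1.81 for 10582545 and 0.17 for the RefSeq cluster.

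**Figure D2:**
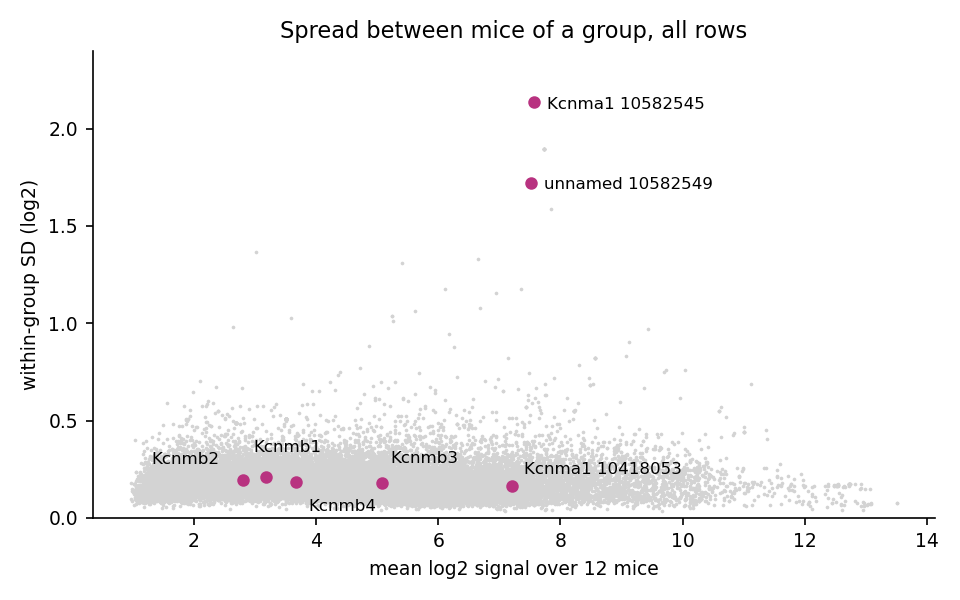
Pooled within-group SD of the log2 signal (vertical axis) against mean log2 signal over the 12 mice (horizontal axis), each gray point being a transcript cluster and the BK channel clusters and 10582549 marked in purple. Cluster 10582545 stands at the top with 2.14, and the RefSeq cluster of Kcnma1 (0.16) and the beta subunits (0.18 to 0.21) lie within the gray mass.

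The 2 *Kcnma1* clusters were compared across mice of a group. After removal of group means, Pearson's r over the 12 mice was 0.06 (p = 0.870, permutation test within groups) and Spearman's rho was -0.13 (p = 0.704, permutation test within groups). By group r was -0.36 among RS and 0.57 among RT mice, where RT-6 was lowest in both clusters, and without RS-1 and RT-6 it was -0.23. Cluster 10582549, the next in number and without a gene symbol, followed 10582545 instead. It read 3.51, 3.85, 4.27, 3.82, 5.47 and 7.34 in RS-1 to RS-6 and 11.48, 8.90, 11.44, 12.11, 10.99 and 7.06 in RT-1 to RT-6. RS-5 and RS-6 were again the highest RS mice, RT-6 again the lowest RT mouse, and RT-6 again below RS-6. Within groups, 10582549 and 10582545 had r = 0.93 and rho = 0.86, and r was 0.87 without RS-6 and RT-6, the 2 mice farthest from the median. The clusters are neighbors whose probes may match related sequence, and this pairing was looked at after the values were seen, so no p is given.

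The genes from *Fanca* to *Dbndd1*, the named neighbors of 10582545 in number, did not share its wide range or its higher level in RT. Whether they followed it across mice of a group was not tested. RefSeq lists 9 genes from *Fanca* to *Dbndd1* on chromosome 8 (chr8:123266294-123518277), and 8 had a cluster of their own. Their ranges over the 12 mice were 0.24 to 1.04 log2 units, against 10.47 for 10582545, whose lowest values lay under background. Of these, 0 were called higher in RT and 2 were called lower. *Tubb3*, a tubulin of neurons, had means of 2.48 in RS and 2.08 in RT, both under background (limma, adjusted p = 0.0384). *Dbndd1* was lower by limma, with a difference of -0.36 (standard error 0.09, adjusted p = 0.0189).

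Around *Kcnma1* itself, the 3 protein-coding genes on each side (*A430057M04Rik*, *Zfp503*, *Lrmda*, *Dlg5*, *E330034G19Rik* and *Polr3a*) had ranges of 0.49 to 0.69. Only *E330034G19Rik* was called, lower in RT with a mean of 1.88 against 2.12 in RS (limma, adjusted p = 0.0575), both under background.

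*Kcnmb1* encodes beta1, which raises the calcium sensitivity of BK channels in smooth muscle. Its lowest, median and highest values were 2.98, 3.11 and 3.44 in RS, and 2.93, 3.24 and 3.54 in RT. The groups covered nearly the same range, and all values were under background. The means were 3.16 ± 0.18 and 3.21 ± 0.24 (SD, n = 6 each). In the genome *Kcnmb1* lies within the coordinates of *Kcnip1*.

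*Kcnmb2* encodes beta2, a subunit that inactivates the channel. It ran from 2.58 over a median of 2.74 to 3.12 in RS, and from 2.69 over 2.77 to 3.04 in RT. The RT values fell within the RS range, and all were under background. The mean was 2.81 in both groups (SD 0.24 in RS and 0.13 in RT, n = 6 each).

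*Kcnmb3*, whose product beta3 has several splice forms, was the only beta subunit above background. It ran from 4.92 over a median of 5.10 to 5.41 in RS, and from 4.79 over 4.98 to 5.25 in RT. The groups overlapped, with RT-6 the lowest mouse and RS-4 and RS-6 the highest. The means were 5.15 ± 0.20 and 5.00 ± 0.15 (SD, n = 6 each), and RT minus RS was -0.16 with a 95% interval from -0.37 to 0.06. With array spread as a covariate the difference was 0.05, while it stayed negative, from -0.17 to -0.08, under the other normalizations.

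*Kcnmb4* encodes beta4, the main beta subunit of neurons. It ran from 3.47 over a median of 3.71 to 4.11 in RS, and from 3.51 over 3.59 to 3.71 in RT. The RT mice lay inside the RS range, and the overall mean of 3.67 was just under background. The means were 3.74 ± 0.24 and 3.60 ± 0.09 (SD, n = 6 each).

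RS-4 and RS-6, the arrays with a narrow spread of signals, held the 2 highest RS values in 3 of the 4 beta subunits, *Kcnmb1*, *Kcnmb2* and *Kcnmb3*. The part of array spread in these values was not tested. For 3 of 4 beta subunits the signal was not above background, so no fold change is given for them.

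**Figure D3:**
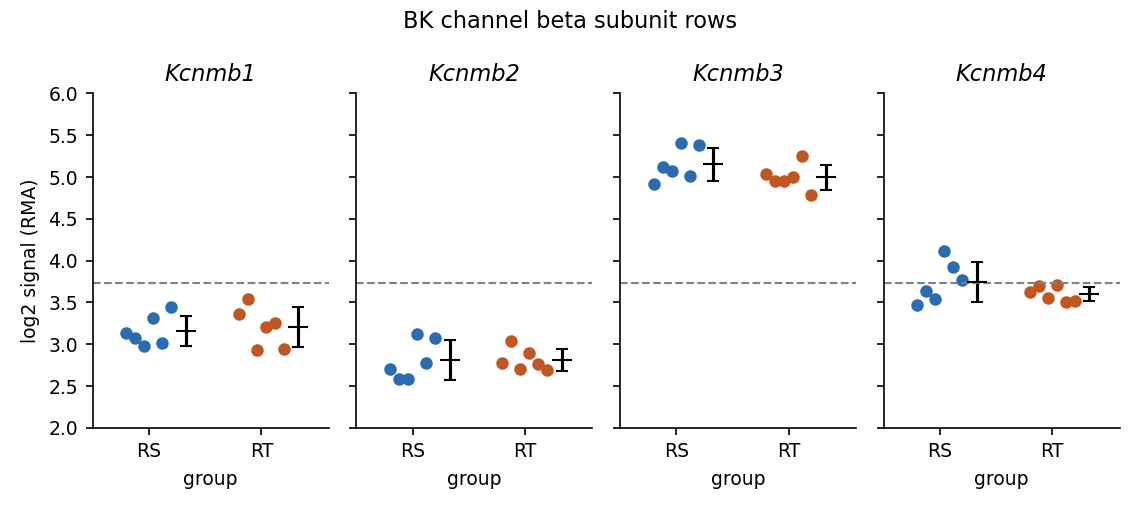
Log2 signal of the 4 beta subunit clusters (vertical axis, from 2 to 6) by group, with a point per mouse, the group mean and SD beside the points, and the background level of 3.74 as a dashed line. Only Kcnmb3 lies wholly above the line, and RS and RT overlap in every panel.

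Of the 6 clusters of the family, 1 (10582545) met the calling rule, which was an unadjusted p under 0.05 with a Benjamini-Hochberg adjusted p under 0.1 in limma. Over all transcript clusters 24.9% were called, 11.9% higher and 13% lower in RT. In 0 of the 6 did RS and RT not overlap, where 5.79% of all clusters did not overlap. The family was chosen for this contrast, and nothing is read from these counts.

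There were 2 genes with clusters that are named as opposite-strand transcripts of *Kcnmb4*. Which strand their probes read was not tested. *Kcnmb4os1* lies within the coordinates of *Kcnmb4* (chr10:116417861-116473859), had a mean of 4.83 ± 0.23 in RS and 4.53 ± 0.16 in RT (SD, n = 6 each), and was called lower (limma, adjusted p = 0.0720). *Kcnmb4os2* ran from 4.32 to 4.89 in RS and from 3.82 to 4.32 in RT, and was called lower with a difference of -0.52 (standard error 0.12, limma, adjusted p = 0.0107). In *Kcnmb4os2*, 5 of 6 RT mice were under all RS mice. These noncoding transcripts are no members, and their clusters were chosen by name. Over all clusters 13% were called lower in RT. In *Kcnmb4os1* the highest RS values were those of RS-4 (5.24) and RS-6 (4.95), the arrays with a narrow spread of signals. The part of array spread in these calls was not tested.

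The remaining parts of the channel and its control were taken from 7 lists with 71 measured genes in all. Of these, 11 were called higher (15.5%) and 7 lower (9.86%), with a median RT minus RS of 0.07. Over all 19938 genes 13.9% were called higher and 10.7% lower, with a median of 0.01, so the lists together stood near the background. The counts of single lists below are to be read beside these shares. With array spread as a covariate 1 of these genes was called higher and 0 lower. Dropping RS-4 together with RS-6 gave 4 calls higher and 2 lower. Cyclic loess gave 12 higher and 4 lower, and renewed quantile normalization 12 and 2. *Cav1* was called in every setting tried, and *Gucy1a1*, *Pde5a* and *Kcnk6* in 22 of 23.

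The gamma subunits are leucine-rich repeat proteins that let BK channels open at more negative voltages. Of 4, 0 were called higher and 2 lower (median difference -0.06). *Lrrc52* read 5.88 ± 0.64 in RS and 5.32 ± 0.23 in RT (SD, n = 6 each), a difference of -0.56 (standard error 0.23, limma, adjusted p = 0.0946), and lost its call in 16 of 23 other settings. Its values overlapped, from 4.81 to 6.57 in RS and from 5.07 to 5.64 in RT. *Lrrc26* had means of 3.68 and 3.38, both under background (limma, adjusted p = 0.0544). *Lrrc38* (difference 0.19) and *Lrrc55* (0.29) did not pass.

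Among the other Slo channels, which share the family fold of *Kcnma1*, 0 of 3 were called higher and 1 lower (median difference -0.27). *Kcnt1*, a sodium-activated potassium channel, read 4.11 ± 0.30 in RS and 3.74 ± 0.25 in RT (SD, n = 6 each; limma, adjusted p = 0.0782), and lost its call in 15 of 23 settings. Its RT mean of 3.735 was just under background. *Kcnt2* (difference 0.16) and the sperm channel *Kcnu1* (-0.27) did not pass. The calcium-activated channels of small and intermediate conductance, which sense calcium through calmodulin, had 0 of 4 called. Their differences were -0.08 for *Kcnn1*, -0.22 for *Kcnn2*, -0.13 for *Kcnn3* and -0.19 for *Kcnn4* (median -0.16). By limma 0 of the 4 had an unadjusted p under 0.05, and 0 were called by the methods' test without moderation.

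Of 23 other potassium channel genes of muscle, 3 were called higher and 2 lower (median difference 0.05). These shares of 13.0% and 8.70% lie near the 13.9% and 10.7% over all genes. *Abcc9*, a sulfonylurea receptor of KATP channels, was higher by 0.38 (standard error 0.12, limma, adjusted p = 0.0425). *Kcnk6*, a leak channel, was higher by 0.30 (standard error 0.09, limma, adjusted p = 0.0301), and *Kcnc4*, a fast-gating voltage-gated channel, was higher by 0.30 (standard error 0.12, limma, adjusted p = 0.0826). *Kcna3*, a voltage-gated channel of lymphocytes and nerve, was lower with a difference of -0.27 (standard error 0.09, limma, adjusted p = 0.0580). *Kcnd3*, a transient-current channel, had means of 3.71 and 3.35, both under background (limma, adjusted p = 0.0139), and its groups did not overlap. *Kcnc4* lost its call in 14 of 23 settings and *Kcna3* in 9.

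Calcium entry and release near the channel decide when it opens. Of 18 calcium channel and store genes, 2 were called higher and 2 lower (median difference 0.09). This is 11.1% each way, near the 13.9% and 10.7% over all genes. *Cacng1*, a subunit of the skeletal muscle L-type channel, was higher by 0.39 (standard error 0.14, limma, adjusted p = 0.0702), and *Trpc1*, a cation channel, by 0.38 (standard error 0.14, limma, adjusted p = 0.0760), with its RS mean of 3.69 under background. *Ryr2*, the cardiac ryanodine receptor, was lower with a difference of -0.29 (standard error 0.08, limma, adjusted p = 0.0243) and an RT mean of 3.64 under background, and the T-type channel gene *Cacna1h* with -0.20 (standard error 0.08, limma, adjusted p = 0.0841). *Cacna1h* lost its call in 16 of 23 settings, and *Cacng1* and *Trpc1* each in 11. *Ryr1* (difference 0.05) and *Cacna1s* (0.07), which carry excitation-contraction coupling, did not pass.

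Nitric oxide acts on BK channels of vessel walls through guanylate cyclase and the cGMP-dependent kinase. In the list of nitric oxide, cGMP and cAMP genes, 4 of 11 were called higher and 0 lower, with a median difference of 0.23. *Gucy1a1*, a guanylate cyclase subunit, read 4.81 ± 0.23 in RS and 5.27 ± 0.22 in RT (SD, n = 6 each) (difference 0.46, limma, adjusted p = 0.0188). *Pde5a*, which degrades cGMP, read 4.11 ± 0.15 and 4.46 ± 0.13 (SD, n = 6 each), a difference of 0.35 (limma, adjusted p = 0.0177). *Gucy1a2* was higher by 0.31 (limma, adjusted p = 0.0646) and *Prkacb*, a catalytic subunit of the cAMP-dependent kinase, by 0.26 (limma, adjusted p = 0.0533). *Gucy1a2* lost its call in 9 of 23 settings. *Prkg1*, the cGMP-dependent kinase itself, differed by 0.07 (adjusted p = 0.721, limma) and did not pass.

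Among 8 proteins that bind or tune the channel, 2 were called higher and 0 lower (median difference 0.11). *Cav1*, the scaffold of caveolae, read 8.20 ± 0.30 in RS and 8.79 ± 0.16 in RT (SD, n = 6 each), with RT from 8.57 to 8.99 and RS from 7.75 to 8.57 (limma, adjusted p = 0.00792). *Crbn*, a ubiquitin ligase receptor, was higher by 0.25 (limma, adjusted p = 0.0828), and lost its call in 16 of 23 settings.

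Markers of smooth muscle, endothelial cells and fibroblasts were also compared between RS and RT. Over all genes 13.9% were called higher and 10.7% lower. Of 17 smooth muscle and pericyte markers, all above background, 8 were called higher and 0 lower (median difference 0.18), and their summed level, as the mean log2 signal of the list, was 6.35 to 6.66 in RS and 6.63 to 6.93 in RT. This list also holds *Des*, a defining skeletal muscle gene, and *Pln*, which slow-twitch fibers also use, so its level is not of vessel walls alone. Neither *Des* nor *Pln* was called. *Kcnj8* and the called *Abcc9* are in both this list and that of the other potassium channels. *Acta2*, the actin of smooth muscle, rose by 0.82 (standard error 0.15, limma, adjusted p = 0.00363) without overlap of the groups, *Myh11*, its myosin, by 0.47 (limma, adjusted p = 0.0300) and *Pdgfrb*, a pericyte receptor, by 0.44 (limma, adjusted p = 0.0377). Of 11 endothelial markers, all above background, 6 were called higher and 0 lower (median 0.46, list level 6.31 to 6.72 in RS and 6.74 to 7.08 in RT), led by *Vwf* (0.71), *Emcn* (0.63) and *Cdh5* (0.56). Of 8 fibroblast markers, all above background, 8 were called higher (median 0.69, list level 7.40 to 8.54 in RS and 8.53 to 8.93 in RT), led by *Lum* (1.04), *Dpt* (0.93) and *Pdgfra* (0.88). In whole muscle more cells of a type and more RNA per cell cannot be told apart. The part of these markers in the genes of the nitric oxide and partner lists was not tested.

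Nerve and Schwann cell markers had 2 of 9 called higher and 2 lower (median -0.11), with list levels of 4.25 to 4.84 in RS and 4.45 to 5.05 in RT, and 6 of 9 were above background. *Pmp22* differed by 1.15, *Ncam1* by 0.32 and *Sox10* by -0.38, while *Nefl* was under background and lost its call in 16 of 22 settings. Markers of satellite cells and regenerating fibers had 2 of 10 called higher and 2 lower (median 0.01), with *Chodl* at 0.60, *Myod1* at 0.43, *Cdh15* at -0.23 and *Myh8* at -0.23. Of these, *Myh8* lost its call in 11 of 23 settings, *Cdh15* in 5, *Myod1* in 4 and *Chodl* in 0. None was called among the 10 genes of the slow-twitch list (median -0.35), 11 fast-twitch genes (median 0.05) or the 8 defining muscle genes (median 0.09). In these lists 0 genes had an unadjusted p under 0.05 in limma and 0 were called by the methods' test without moderation.

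**Figure D4:**
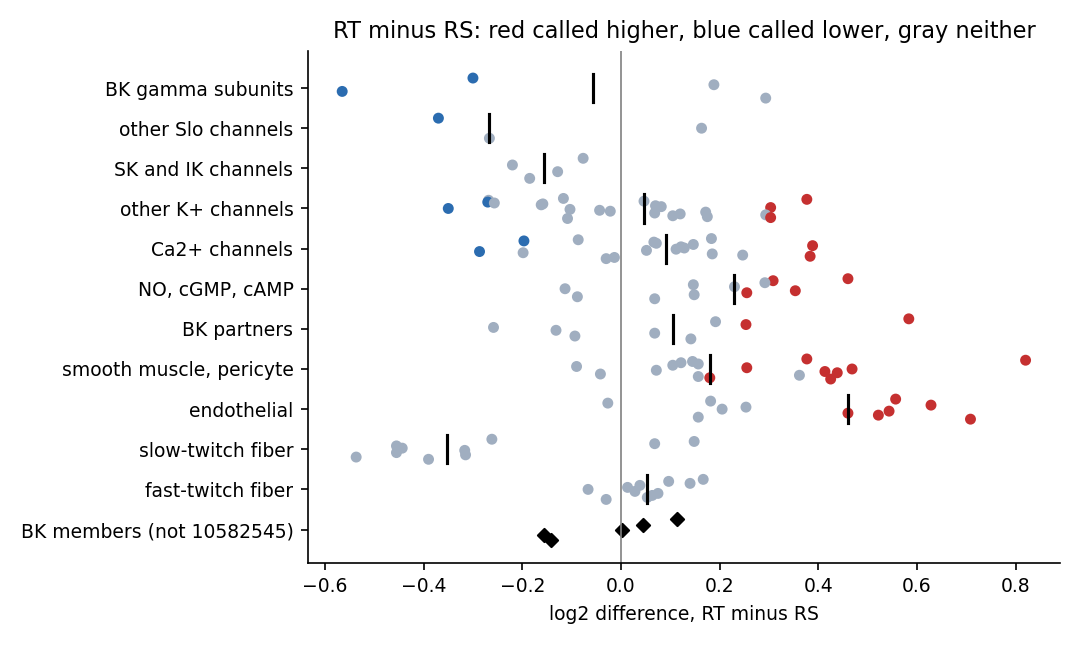
RT minus RS of the log2 signal (horizontal axis) for the genes of 11 lists around the BK channel, each point being a gene, red where called higher, blue where called lower and gray otherwise, with the list median as a black bar and the 5 BK channel clusters other than 10582545 as diamonds. The BK channel clusters lie between -0.16 and 0.11, within the gray points of the other lists.

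The pattern of the RefSeq *Kcnma1* cluster across mice of a group was set beside those of other genes. Group means were removed first, so that the RT minus RS difference did not enter, and 14877 clusters of 13535 genes above background were searched. The median r of these clusters with the RefSeq cluster was 0.04. The highest were *Pcp4l1* (r = 0.95), *Casq2* (0.92), *Pln* (0.91), *Fzd9* (0.91) and *Idh2* (0.91), and the lowest were *Jph4* (-0.96), *A530016L24Rik* (-0.89) and *Mst1r* (-0.85). *Casq2* encodes the calsequestrin and *Pln* the phospholamban of slow-twitch and cardiac muscle, and *Idh2* a mitochondrial isocitrate dehydrogenase. These are the extremes of many clusters over 12 mice and carry no p. After cyclic loess or renewed quantile normalization, 0 of the 5 highest were again among the highest 5, and with single mice left out 1 (without RS-1 or RT-6) to 5 of 5 were.

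The RefSeq cluster was then set beside the lists, a comparison chosen after the data were seen. The adjusted p given here and in the next paragraph do not cover that choice, so they are descriptive. With the mean signal of the slow-twitch list, the RefSeq cluster had r = 0.79 over the 12 mice, with an unadjusted p = 0.00352 (permutation test within groups, two-sided), and rho = 0.81. The adjusted p over all 43 relations computed was 0.0757 for r and 0.0729 for rho in these permutation tests, so the relation did not pass 0.05 after adjustment. Without RS-1 and RT-6, the mice farthest from the median of *Kcnma1*, r was 0.84, and r was 0.62 among RS and 0.92 among RT mice. RT-6 was lowest in both and r was 0.64 without it, while r was 0.91 without RS-1. All 10 genes of the slow-twitch list, which also holds *Myh2*, the myosin of fast oxidative fibers (r = 0.73), had a positive r, from 0.68 for *Tnnt1*, the slow troponin T, to 0.92 for *Casq2*.

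The smooth muscle list had r = 0.75 and the endothelial list r = 0.74 with the RefSeq cluster, each with an adjusted p = 0.0982 in the permutation test. Of the 17 smooth muscle genes 15 had a positive r (median 0.32, from -0.18 to 0.91). Of the 11 endothelial genes 10 had a positive r (median 0.56, from -0.45 to 0.77). The single smooth muscle gene with the highest r was *Pln* (0.91), which slow-twitch fibers also use. *Smtn* had 0.61, *Acta2* 0.48, *Myh11* 0.42 and *Tagln* 0.01. In the nitric oxide list *Prkg1* had r = 0.90 and rho = 0.87, and the list's median r was 0.24. *Prkg1* was singled out after the values were seen. The list of BK gamma subunits had r = 0.56 (adjusted p = 0.332, permutation test) and rho = 0.75 (adjusted p = 0.0844, permutation test). The fast-twitch list had r = -0.09. The beta subunits had r between -0.46 (*Kcnmb4*) and 0.20 (*Kcnmb1*) with the RefSeq cluster, and none of these 4 relations passed in the permutation test.

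**Figure D5:**
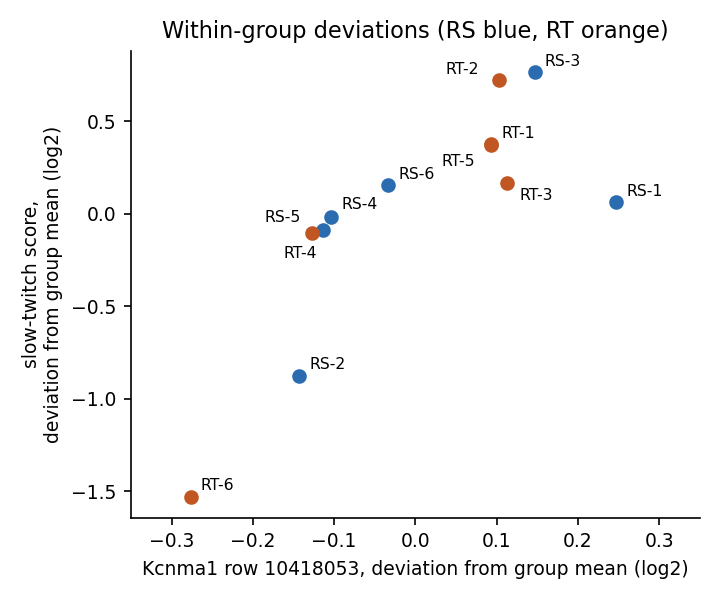
Mean log2 signal of the 10 genes of the slow-twitch list (vertical axis) against the RefSeq cluster of Kcnma1 (horizontal axis), each as the deviation of a mouse from its group mean, with RS in blue and RT in orange. The points rise together (r = 0.79), with RT-6 lowest on both axes at -0.28 and -1.53.

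The clusters most like 10582545 within groups were another set. The highest r were those of *Nod2* (0.92), *G630025P09Rik* (0.92), *Hmgn1* (0.90), *Enox1* (0.90) and *Qrfp* (0.90), and the lowest those of *Creb3l2* (-0.91), *Trim13* (-0.90) and *Adssl1* (-0.90). Their signals ranged over only 0.36 to 1.42 log2 units. With RS-4 and RS-6 left out, 0 of the 5 highest were again among the highest 5, so this set rested on those arrays, whereas 10582549 kept r = 0.91 without them. *Cwc22*, a splicing factor gene with 8 clusters, 7 of them of identical values, had the next largest within-group SD of all clusters (1.89). Its r with 10582545 was 0.87, and 0.74 without RS-6 and RT-6. *Cwc22* was named after its values were seen, so no p is given. It ran from 5.09 to 9.80 in RS and from 5.91 to 9.69 in RT, and was not called between groups.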

How the data were processed

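Per the labels and the study's methods, total RNA (250 ng) of 12 gastrocnemius muscles was hybridized to Affymetrix Mouse Gene 1.0 ST arrays. The deposited log2 signals of 28944 transcript clusters were normalized with RMA by the authors, per the submitters' processing notes. The genome build of the array values is not given in the sources used here, and 0 columns belonged to other samples. No scan dates were used here, and no counts exist, so the number of arrays limits precision.

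Symbols came from GEO's platform annotation, which can be old: 21789 clusters had 1 symbol, 1621 several and 5534 none. Coordinates and start regions are RefSeq's (GRCm38.p6). RT and RS were compared with limma 3.58.1 (R 4.3.3), without covariates, over all clusters, two-sided, and called at an unadjusted p under 0.05 with a Benjamini-Hochberg adjusted p under 0.1, the study's thresholds. The fit was tested on simulated data. A listed gene with several clusters takes the cluster of highest mean signal. Correlations used values minus group means, and their p came from 100000 permutations within groups. Within a group the labels do not say more than that arrays are of separate mice.

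The members and all lists were chosen with earlier results of these data known. Named are every member cluster, up to 3 called genes per list and direction, the 5 most and 3 least similar clusters, and the chromosomal neighbors. In larger lists of cell type markers calls are given as counts with examples, and *Ryr1*, *Cacna1s*, *Prkg1* and *Cwc22* were named after their values were seen. Alternatives were another normalization, centering, array spread as a covariate, array weights, filters, thresholds, the methods' ANOVA, a replicate block and leaving out arrays. The likeness to the RefSeq cluster and its lists, cluster 10582549, and the genes on chromosome 8 were chosen after seeing the data.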

Additional observations from a re-analysis of the deposited data

Results flagged for a closer look

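Among 94 groups of 6 values tested, a single mouse stood far from the others of its group in each of 2 genes, and chance alone sets apart about 1 in 20 groups. *Nefl*, a neurofilament gene of the nerve list, read 4.07 in RS-4, with the nearest RS mouse at 3.34. *Myod1*, a myogenic factor of the satellite cell list, read 6.78 in RT-4, with the nearest RT mouse at 6.20. No value of *Kcnma1* or of a beta subunit stood apart in this way, including the wide values of 10582545, which were spread along their range.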

How the results depend on the processing

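The 12 arrays limit precision, and 3 beta subunits were not above background. Of the member differences, 10582545 stayed between 6.49 and 7.86 under other scalings, array weights and without RS-4 and RS-6, and between 6.18 and 7.41 with any 1 mouse left out. *Kcnmb3* moved from -0.16 to 0.0538 with array spread as a covariate, and the cause was not tested. Leaving out 1 mouse gave 0.08 to 0.17 for the RefSeq cluster, -0.02 to 0.10 for *Kcnmb1*, -0.04 to 0.06 for *Kcnmb2*, -0.21 to -0.10 for *Kcnmb3* and -0.20 to -0.07 for *Kcnmb4*. The within-group SD was 1.74 to 2.24 for 10582545 and 0.14 to 0.17 for the RefSeq cluster.

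Over all clusters, calls higher and lower were 5883 and 2414 with each array centered on its median, 732 and 888 with array spread as a covariate, 1649 and 1791 without RS-4 and RS-6, 2092 and 2307 at an adjusted p under 0.05, and 2360 to 4573 and 2564 to 4806 with 1 mouse left out. In the 71 listed genes, calls higher were 20 after centering, 1 with array spread, 6 by the methods' ANOVA, 4 without RS-4 and RS-6, 5 at the stricter threshold and 5 to 14 with 1 mouse left out (5 without RS-6). Calls lower there were 2 after quantile normalization, 4 after cyclic loess, 3 after centering, 0 with array spread, 2 without RS-4 and RS-6, 2 at the stricter threshold and 2 to 11 with 1 mouse left out (2 without RS-4, 11 without RS-1). Of the 38 named genes in 23 settings, 683 results kept their side of the threshold, 187 lost it, 1 gained it and 0 reversed.

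The replicate numbers did not pair the mice: same-number correlations lay between -0.24 and 0.11. With the replicate number as a block, the member differences were the same (0.11 for the RefSeq cluster, 6.63 for 10582545), calls over all clusters were 2873 higher and 3174 lower, and the lists had 10 higher and 4 lower.

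The r of the RefSeq cluster with the slow-twitch list was 0.89 after cyclic loess and 0.64 to 0.91 with 1 mouse left out, and that of 10582545 with 10582549 was 0.91 to 0.97.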
